A study of Mus musculus with 24 samples.

Results

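The 28 genes described here make, load, carry, receive or anchor the signals of GABA and glycine, the main fast inhibitory transmitters of the mouse brain. They were listed by symbol and matched to the Ensembl gene IDs of the count tables, and all 28 of 28 were found among 37621 features. The list holds 14 GABA-A receptor subunits, both GABA-B receptor subunits, 4 glycine receptor subunits, the GABA synthesis genes Gad1 and Gad2 with the vesicle transporter Slc32a1, 3 membrane transporters, the anchoring gene Gphn and the breakdown gene Abat. It is not a full list of the families, so every share given below is a share of the listed genes. The genes were measured by poly(A)-selected RNA sequencing in C57BL/6 mice that carry the Cdr1as locus (wild type) or have lost it (knockout), in dissected cerebellum, cortex, hippocampus and olfactory bulb. Each of the 8 groups held 3 libraries, 24 in all. The age of the mice and any pooling are not given in the sources used here, nor is it stated that the libraries of a group are separate animals, so p-values measure the spread between these libraries.

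Library depth ran from 21068566 to 40472007 gene counts. Levels are given as CPM, counts per 1000000 counts of a library after scaling with TMM factors, and levels of different genes are compared only as CPM per kilobase of exon. The feature for the Cdr1as locus stood at 2.23 to 29.0 CPM in the 12 wild-type libraries and at 0.115 to 1.95 CPM in the 12 knockout libraries, and did not overlap between the genotypes in any region. In the hippocampus the gap was narrow, with a highest knockout value of 1.95 CPM and a lowest wild-type value of 2.27 CPM. The summed level of 10 cerebellum markers was 7201 to 8048 CPM in the cerebellum and at most 291 CPM elsewhere. Bulb markers, 10 in all, summed to 2045 to 2324 CPM in the bulb and to at most 584 CPM elsewhere. In bulk tissue a gene can be lower because fewer cells carry it or because each cell holds less of its RNA, and these cannot be told apart here.

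GABA-A receptors are chloride channels built from 5 subunits, usually with alpha, beta and gamma or delta members, and the alpha subunit sets much of their pharmacology and location. GABA-B receptors are obligate pairs of Gabbr1 and Gabbr2 that signal through G proteins. Glycine receptors pair alpha subunits with Glrb, which ties them to gephyrin, the scaffold encoded by Gphn. The transcript of the Cdr1as locus is a closed ring of RNA that carries miR-7 binding sites in number and 1 site that miR-671 cleaves.

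Regional make-up was read from the 12 wild-type libraries, in 1 edgeR quasi-likelihood fit over 16729 genes with Benjamini-Hochberg adjustment, where an adjusted p under 0.05 counts as a call. The cortex held the highest mean of 11 listed genes, the olfactory bulb of 8, the cerebellum of 6 and the hippocampus of 3. The hippocampus held the lowest mean of 11. Between cerebellum and cortex 21 of 28 were called, where 53.7% of all genes were, with 8 higher in the cerebellum (26.5% of all genes) and 13 lower (27.3%). Between cerebellum and hippocampus 18 were called (49% of all genes), 11 higher in the cerebellum (24.3%) and 7 lower (24.7%). Between cerebellum and olfactory bulb 21 were called (46.4%), 8 higher in the cerebellum (22.7%) and 13 lower (23.7%). Between cortex and hippocampus 13 of 28 were called, against a background of 13.5%, and 12 of these were higher in the cortex, where 8% of all genes were. Between cortex and bulb 18 were called (44.3%), 10 higher in the cortex (22.7%) and 8 lower (21.6%). Between hippocampus and bulb 16 were called (40.9%), 5 higher in the hippocampus (20.9%) and 11 lower (19.9%). The median difference over the 28 genes between cortex and hippocampus was 0.47 on the log2 scale, beside 0.005 over all genes. The summed level of 8 striatum markers was 731 to 1346 CPM in the wild-type cortex and 146 to 199 CPM in the wild-type hippocampus. Its part in these differences was not tested. Calls of at least 2-fold numbered, in the same order of pairs, 16 (25.1% of all genes), 13 (23%), 14 (23.5%), 6 (5.76%), 9 (17.6%) and 10 (18.1%). Only 1 gene, Gabra5, was called lower in cortex than in hippocampus (5.49% of all genes).

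**Figure D1:**
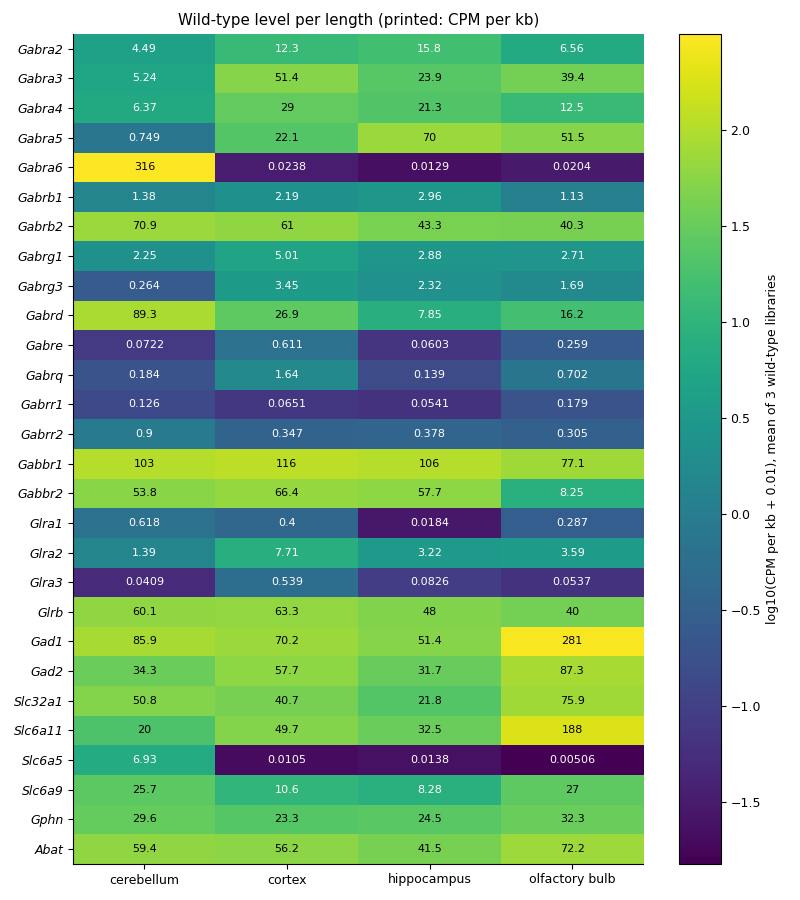
Mean wild-type level of each listed gene per kilobase of exon (rows) in the 4 regions (columns), with colour on a log10 scale and the value in CPM per kb printed in each cell (mean of 3 libraries). Gabra6 in the cerebellum (316), Gad1 in the olfactory bulb (281) and Slc6a11 in the olfactory bulb (188) are the brightest cells.

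Each region had its own make-up of alpha subunits. Gabra6, the alpha subunit known from cerebellar granule cells, stood at 740, 768 and 852 CPM in the 3 wild-type cerebellum libraries. In the other regions its reads, summed over 3 wild-type libraries, were 6 for cortex, 3 for hippocampus and 4 for olfactory bulb, against 73427 for cerebellum, so no fold is given. The cerebellum was called higher than each other region, with edgeR adjusted p of at most 5.26e-10. Its genomic neighbour Gabrb2, a beta subunit that lies within 2 protein-coding genes of it on chromosome 11 and on the opposite strand, was read in all 4 regions. The 2 promoters are shown because these neighbours differ so much in where they are read. The sequences are from RefSeq on GRCm38.p6, run from 250 bases before to 50 bases after the start, lie at chr11:42321023-42321322 (minus strand) and chr11:42420190-42420489 (plus strand, the first of 3 listed starts), and have CG pairs in capitals.
Gabra6: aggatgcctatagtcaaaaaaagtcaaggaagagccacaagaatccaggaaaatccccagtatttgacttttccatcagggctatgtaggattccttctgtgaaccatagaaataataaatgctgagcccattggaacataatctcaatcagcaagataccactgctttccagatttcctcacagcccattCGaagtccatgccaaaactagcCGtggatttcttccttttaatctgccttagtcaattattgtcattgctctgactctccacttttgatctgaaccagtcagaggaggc
Gabrb2: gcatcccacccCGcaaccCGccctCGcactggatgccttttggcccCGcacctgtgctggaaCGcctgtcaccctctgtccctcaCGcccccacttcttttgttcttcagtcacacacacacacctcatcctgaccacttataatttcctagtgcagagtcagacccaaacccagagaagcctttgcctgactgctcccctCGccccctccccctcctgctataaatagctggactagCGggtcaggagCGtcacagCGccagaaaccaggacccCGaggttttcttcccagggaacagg
The Gabra6 promoter holds 2 CG pairs and that of Gabrb2 holds 11. Of all tested genes with a promoter in the table, 4.97% have as few as Gabra6. Over the 25 listed genes with a promoter the median was 13 CG pairs, against 19 over all 12413. Gabra3, read in all 4 regions, holds 0 CG pairs at its first listed start. Slc6a5, read almost only in the cerebellum, holds 12 at its first. A link between CG pairs and the range between regions was not tested.

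Gabra5, an alpha subunit known for receptors outside the synapse in the hippocampus, had its lowest level in the cerebellum. It stood at 214, 230 and 180 CPM in the wild-type hippocampus, 142, 171 and 146 CPM in the bulb, and 68.3, 62.5 and 66.9 CPM in the cortex. In the cerebellum its values were 4.68, 1.16 and 0.836 CPM, and library 1 was the high one there. Each of the 3 other regions was called above the cerebellum, by 6.59 ± 0.50 (SE) on the log2 scale for the hippocampus (edgeR adjusted p = 1.55e-06), and hippocampus and bulb did not differ beyond their spread (0.44 ± 0.38, adjusted p = 0.39). Without wild-type cerebellum library 1 the difference between hippocampus and cerebellum was 7.70, that between bulb and cerebellum 7.26 in place of 6.14, and that between cortex and cerebellum 6.04 in place of 4.92. The hippocampus was called above the cortex (1.66 ± 0.39, adjusted p = 0.0167), but not when wild-type cortex library 1 or 3 or hippocampus library 1 or 2 was left out (adjusted p up to 0.0662). The bulb was called above the cortex (1.22 ± 0.39, adjusted p = 0.0258), but not when any 1 of the 3 cortex libraries or bulb library 2 or 3 was left out (up to 0.0722). Reads of Gabra5 cannot be told apart from those of an antisense gene that overlaps its exons, because the strand setting of the counting is not stated.

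Gabra3 led in the cortex, with 214, 179 and 213 CPM, followed by the bulb with 166, 150 and 148 CPM, the hippocampus with 85.1, 103 and 93.1 CPM and the cerebellum with 29.0, 15.99 and 16.7 CPM. Cortex and bulb did not differ beyond their spread (0.38 ± 0.19, adjusted p = 0.123), while cortex over hippocampus (1.10 ± 0.19, 0.00217), bulb over hippocampus (0.72 ± 0.19, 0.00965) and hippocampus over cerebellum (2.19 ± 0.20, 2.78e-06) were calls. Gabra4 was called in all 6 pairs of regions, at 177 ± 24 (SD, n = 3) CPM in the cortex, 129 ± 1.4 in the hippocampus, 75.9 ± 1.7 in the bulb and 38.8 ± 2.8 in the cerebellum. Gabra4 shares exon sequence with Gabrb1 on the opposite strand. Gabra2 followed the order hippocampus (121 ± 25 CPM), cortex (93.6 ± 12), bulb (50.1 ± 8.7) and cerebellum (34.3 ± 6.4). Hippocampus and cortex did not differ beyond their spread for Gabra2 (0.37 ± 0.19, adjusted p = 0.252). Its bulb value was called above the cerebellum (0.55 ± 0.19, 0.0325), but not without cerebellum library 1 or 2 or bulb library 1 or 3 (up to 0.115).

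Per length, Gabra6 held 94.9% ± 0.94 (SD, n = 3) of the listed alpha transcripts of the wild-type cerebellum. In the cortex Gabra3 held 44.7% ± 2.2, Gabra4 25.3% ± 2.6, Gabra5 19.3% ± 1.0 and Gabra2 10.6% ± 0.47. In the hippocampus Gabra5 held 53.3% ± 3.5, with Gabra3 at 18.3% ± 1.8, Gabra4 at 16.3% ± 0.83 and Gabra2 at 12.1% ± 2.9. The bulb lay between, with Gabra5 at 46.8% ± 3.8 and Gabra3 at 35.9% ± 2.4. The leading gene of the bulb depended on the length correction, since without it Gabra5 held 35.3% and Gabra3 35.7%. Wild-type and knockout shares overlapped for every listed alpha gene in cerebellum and cortex, as the plot of shares by library shows. In the bulb Gabra4 held 10.9% to 11.6% in wild type and 12.2% to 12.8% in the knockout, without overlap. In the hippocampus Gabra3 held 16.3% to 19.4% in wild type and 10.4% to 15.7% in the knockout, without overlap. Gabra5 held 49.5% to 56.4% there in wild type and 56.9% to 60.8% in the knockout. The shares of a library add up to a fixed whole, so a lower share of Gabra3 raises that of Gabra5 by construction. The CPM of Gabra5 in the hippocampus overlapped, at 214, 230 and 180 in wild type and 237, 214 and 234 in the knockout. No background over all genes is given for shares without overlap.

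**Figure D2:**
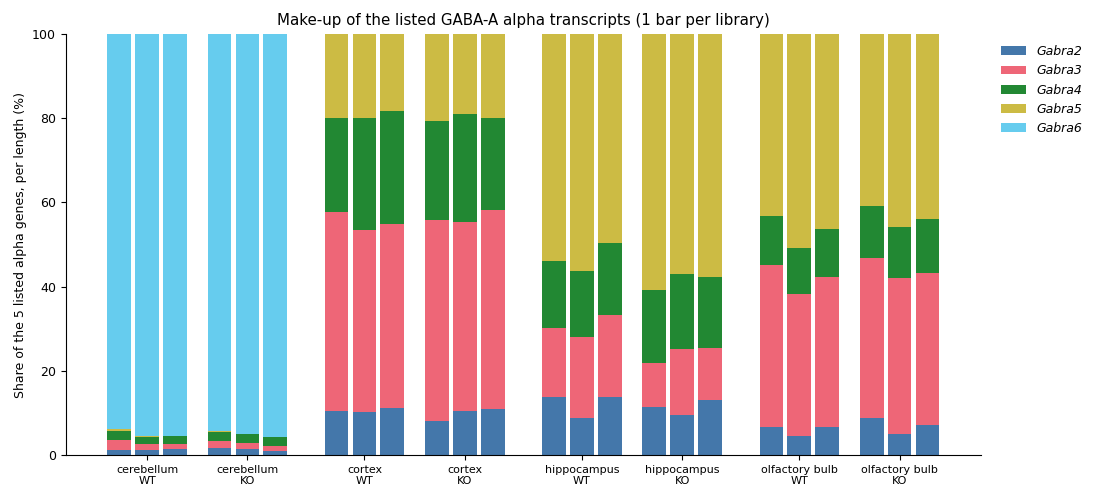
Share of each of the 5 listed GABA-A alpha genes in their summed CPM per kb (y axis, percent), 1 bar per library, grouped by region and by wild type (WT) or knockout (KO). Gabra6 fills 94.9% of the wild-type cerebellum bars on average and is next to absent elsewhere, and Gabra5 takes the largest part in the hippocampus.

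Among the beta subunits, Gabrb2 stood far above Gabrb1 per length in each region. Gabrb2 stood at 509, 304 and 540 CPM in the wild-type cerebellum, 388, 324 and 452 in the cortex, 308, 198 and 321 in the hippocampus and 325, 169 and 276 in the bulb. Library 2 was the lowest in each region. The only call for Gabrb2 without a block was cerebellum over bulb (0.81 ± 0.28, adjusted p = 0.0353), and it was lost without wild-type cerebellum library 1 or 3, cortex library 1 or bulb library 2 or 3 (up to 0.120). Without a block for the library number, Gabrb1 had no call in any pair of regions, at 40.9 ± 22 CPM in the hippocampus, 30.3 ± 14 in the cortex, 19.1 ± 6.1 in the cerebellum and 15.7 ± 6.8 in the bulb. With the number as a block, Gabrb1 was called for cortex over cerebellum (0.58 ± 0.15, adjusted p = 0.00601), cortex over bulb (0.93 ± 0.15, 0.000479) and hippocampus over bulb (1.32 ± 0.15, 4.2e-05), and Gabrb2 for cortex over hippocampus (0.52 ± 0.11, 0.00744) and cortex over bulb (0.64 ± 0.11, 0.000769). The per-length ratio of Gabrb2 to Gabrb1 was 17.7 ± 8.5 in the hippocampus and 52.1 ± 3.5 in the cerebellum.

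Gabrg1, the gamma subunit with the higher level per length in each region, stood at 43.0, 32.4 and 42.9 CPM in the cortex and at 16.7 to 25.6 CPM in the 9 other wild-type libraries. The cortex did not overlap the others and was called above the cerebellum (1.16 ± 0.14, adjusted p = 2.37e-05), the hippocampus (0.80 ± 0.14, 0.00200) and the bulb (0.88 ± 0.14, 0.000298). The hippocampus over the cerebellum (0.36 ± 0.14, 0.0495) was a call that 8 of 12 runs leaving out 1 library lost, namely without cerebellum 2 or 3, cortex 3, hippocampus 1 or 3, or any bulb library (up to 0.139). Gabrg3 was lowest in the cerebellum, at 5.23, 1.85 and 2.39 CPM, and stood at 41.2 ± 6.6 CPM in the cortex, 27.7 ± 4.6 in the hippocampus and 20.2 ± 3.1 in the bulb. Its call of cortex over bulb (1.03 ± 0.29, 0.0149) was lost without cortex library 3 or bulb library 2 (up to 0.0596).

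Gabrd, the delta subunit of receptors outside the synapse that sense ambient GABA, separated all 4 regions. It stood at 246, 267 and 258 CPM in the wild-type cerebellum, 73.2, 78.5 and 80.2 in the cortex, 44.2, 51.4 and 44.5 in the bulb and 21.5, 22.8 and 23.5 in the hippocampus. All 6 pairs were called, and the cerebellum exceeded the hippocampus by 3.51 ± 0.09 (adjusted p = 1.47e-10). Gabre and Gabrq, which flank Gabra3 on the X chromosome, were low throughout and shared 1 order of regions. Gabrq stood at 8.77 ± 4.8 CPM in the cortex, 3.76 ± 0.28 in the bulb, 0.986 ± 0.92 in the cerebellum and 0.742 ± 0.22 in the hippocampus, and cortex over bulb was not a call (1.21 ± 0.53, 0.0840). Its call of bulb over cerebellum (1.96 ± 0.58, 0.0161) was lost without cerebellum library 2 (0.0618) and was 3.01 without cerebellum library 1. Without that library cortex over cerebellum was 4.23 for Gabrq in place of 3.17 and 3.93 for Gabre in place of 3.09, and bulb over cerebellum was 2.70 for Gabre in place of 1.87. With the library number as a block, cortex over bulb was also a call for Gabre (1.13 ± 0.40, adjusted p = 0.0372, against 0.0525 without the block). The rho subunits Gabrr1 and Gabrr2, best known from the retina, reached at most 0.632 CPM and 2.47 CPM in wild type. Gabrr2 was called higher in the cerebellum (1.89 ± 0.50 CPM) than in each other region, and Gabrr1 had no call.

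The GABA-B pair stood apart in the olfactory bulb, where Gabbr2 was low. Gabbr2, which carries the G-protein coupling of the pair, stood at 61.3, 49.7 and 54.5 CPM in the bulb and at 351 to 481 CPM in the 9 other wild-type libraries. The bulb was called below the cortex by 3.01 ± 0.11, the hippocampus by 2.80 ± 0.11 and the cerebellum by 2.70 ± 0.11 on the log2 scale (adjusted p of at most 5.88e-09). Gabbr1, which binds GABA, stood at 961, 883 and 865 CPM in the cortex, 854, 885 and 736 in the hippocampus, 838, 823 and 743 in the cerebellum and 624, 614 and 557 in the bulb. Its spread between regions was among the smallest of the list, with a highest mean 1.51 times the lowest, and only the bulb was called apart without a block. With the library number as a block, cortex over cerebellum was also a call for Gabbr1 (0.17 ± 0.07, adjusted p = 0.0391). The per-length ratio of Gabbr1 to Gabbr2 was 9.40 ± 1.1 in the bulb, where the other regions had 1.92 ± 0.087 (cerebellum), 1.85 ± 0.17 (hippocampus) and 1.76 ± 0.090 (cortex). A difference of Gabbr2 between cortex and cerebellum (0.30 ± 0.10, 0.0279) was lost without any 1 of the 3 cerebellum libraries or cortex library 1 or 3 (up to 0.0828).

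Glycine receptor transcripts were mostly Glrb, the beta subunit that ties the channel to the scaffold. It held 96.8% ± 2.5 of the listed glycine receptor transcripts per length in the cerebellum, 93.5% ± 0.49 in the hippocampus, 91.0% ± 1.6 in the bulb and 88.0% ± 1.7 in the cortex. Glrb stood at 284, 285 and 314 CPM in the cortex, 289, 267 and 284 in the cerebellum, 210, 240 and 220 in the hippocampus and 186, 194 and 178 in the bulb. Cortex and cerebellum did not differ beyond their spread (0.07 ± 0.08, 0.474). Its calls of cortex and of cerebellum over hippocampus (0.40 ± 0.08, 0.00669, and 0.32 ± 0.08, 0.00655) were lost without hippocampus library 1 (0.0588 and 0.0684). The call of hippocampus over bulb (0.26 ± 0.08, 0.0242) was lost without hippocampus library 2 or bulb library 1 or 3 (up to 0.111).

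Glra2, the alpha subunit known from developing brain, was highest in the cortex at 23.8, 20.7 and 28.3 CPM and lowest in the cerebellum at 7.73, 2.54 and 2.87 CPM. Without cerebellum library 1, cortex, hippocampus and bulb exceeded the cerebellum by 3.17, 1.90 and 2.06 in place of 2.48, 1.22 and 1.38. Its call of cortex over bulb (1.10 ± 0.33, 0.0184) was lost without cortex library 3 or bulb library 2 (up to 0.0669), and that of cortex over hippocampus (1.26 ± 0.33, 0.0267) without cortex library 1 or 3 or any hippocampus library (up to 0.108). Glra3 stood at 7.83, 1.64 and 5.42 CPM in the cortex, 1.002, 0.112 and 1.17 in the hippocampus, 0.925, 0 and 0.558 in the bulb and 0.980, 0 and 0.149 in the cerebellum. Library 2 was the lowest in each region, and each cortex library stood above all 9 wild-type libraries of the other regions. The call of cortex over cerebellum for Glra3 (3.76 ± 1.19, 0.0210) was lost without cerebellum library 2 or 3 or cortex library 1 (up to 0.0788), and its size was 5.94 without cerebellum library 1 and 3.16 without cerebellum library 2. That of cortex over bulb (3.36 ± 1.17, 0.0387) was lost in 8 of 12 runs, without cerebellum 3, cortex 1 or 3, hippocampus 1 or 3, or any bulb library (up to 0.110), and was 4.24 without bulb library 1 and 2.72 without bulb library 2. With the library number as a block, cortex over hippocampus was also a call for Glra3 (2.88 ± 0.57, adjusted p = 0.00598).

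Glra1, the adult alpha subunit of spinal cord and brainstem, was low in all 4 regions. It stood at 3.49, 0.157 and 0.836 CPM in the cerebellum, 1.93, 0.249 and 0.711 in the cortex, 1.05, 0 and 1.03 in the bulb and 0.0884, 0 and 0.0449 in the hippocampus. Over the 3 hippocampus libraries this was 4 reads, and the region overlapped none of the cerebellum libraries. The call of cerebellum over hippocampus (4.82 ± 1.63, 0.0300) was lost without cerebellum library 1 or any 1 hippocampus library (up to 0.128), and was 3.27 without cerebellum library 1 and 5.86 without hippocampus library 1. With the library number as a block, cortex and bulb were also called above the hippocampus for Glra1 (4.41 ± 0.82, adjusted p = 0.00344, and 3.88 ± 0.85, 0.00337). The summed level of 12 hindbrain and spinal cord markers was 0.269 to 0.762 CPM in the wild-type cerebellum and 6.41 to 7.74 CPM in the wild-type cortex, and its part in these values was not tested. Glra1 overlaps an antisense gene.

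The genes of GABA synthesis and loading were highest in the olfactory bulb. Gad1, the enzyme that supplies most GABA of the cell body, stood at 2084, 2296 and 2070 CPM in the bulb, 686, 631 and 651 in the cerebellum, 565, 497 and 547 in the cortex and 390, 392 and 396 in the hippocampus. No region overlapped another, and the bulb exceeded the hippocampus by 2.45 ± 0.09 (adjusted p = 3.04e-09). Gad2, the form enriched at nerve endings, stood at 513 ± 64 CPM in the bulb, 339 ± 32 in the cortex, 202 ± 20 in the cerebellum and 186 ± 19 in the hippocampus. Cerebellum and hippocampus did not differ beyond their spread for Gad2 (0.11 ± 0.12, 0.475), and the other 5 pairs were called. The per-length ratio of Gad1 to Gad2 was 3.27 ± 0.59 in the bulb, 2.51 ± 0.14 in cerebellum, 1.63 ± 0.18 in hippocampus and 1.22 ± 0.051 in cortex. Its size depends on the length used, 7639 bases of exon for Gad1 and 5876 for Gad2 here. The longest transcripts have 3601 and 5744 bases. The order of regions does not depend on this choice. Slc32a1, which fills vesicles with GABA or glycine, followed Gad1 in its order of regions, at 212 ± 33, 142 ± 8.1, 114 ± 6.1 and 60.8 ± 2.4 CPM. The calls of cerebellum over cortex were lost for Gad1 (0.29 ± 0.09, 0.0133) without cerebellum library 1 or cortex library 2 (up to 0.0507) and for Slc32a1 (0.32 ± 0.11, 0.0243) without cerebellum library 1 or 2 or cortex library 2 or 3 (up to 0.0815). The summed level of 10 inhibitory neuron markers was 972 to 1207 CPM in the wild-type bulb, 843 to 949 in the cerebellum, 368 to 492 in the cortex and 297 to 331 in the hippocampus, the same order as Gad1, and its part in these values was not tested. Calb2 is among these inhibitory neuron markers and also among the bulb markers, which summed to 469 to 506 CPM in the wild-type cerebellum. The sum is not a count of inhibitory neurons. Slc32a1 overlaps an antisense gene.

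Of the membrane transporters, Slc6a11, a GABA uptake carrier known from astrocytes, led in the bulb with 962, 1030.3 and 860 CPM. It stood at 345, 177 and 230 CPM in the cortex, 175, 166 and 152 in the hippocampus and 168, 71.1 and 63.8 in the cerebellum, where library 1 was the high one. The bulb was called above each other region, by 1.92 ± 0.35 over the cortex (edgeR adjusted p = 0.00109). The summed level of 8 astrocyte markers was 3703 to 4060 CPM in the wild-type bulb and 4957 to 6733 CPM in the other wild-type regions. The sum is not a count of astrocytes, and its part in the Slc6a11 values was not tested. Slc6a5, the glycine carrier of glycinergic nerve endings, stood at 45.9, 53.2 and 50.7 CPM in the cerebellum. Its reads summed over 3 wild-type libraries were 4661 there, 6 in the cortex, 8 in the hippocampus and 3 in the bulb. Slc6a9, the glycine carrier known from glia, had the highest level per length of the transporters in the cerebellum. It stood at 133, 146 and 118 CPM there, 138, 167 and 111 in the bulb, 63.3, 52.6 and 47.2 in the cortex and 42.2, 45.1 and 40.3 in the hippocampus. Cerebellum and bulb were each called above cortex and hippocampus, did not differ from each other beyond their spread (0.07 ± 0.15, 0.724), nor did cortex and hippocampus (0.35 ± 0.15, 0.166), although with the library number as a block this was a call (0.35 ± 0.10, adjusted p = 0.0378). Slc6a9 shares exon sequence with 3 genes on the opposite strand.

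Gphn, which encodes the scaffold gephyrin, had the smallest range between regions of the list, with a highest mean 1.38 times the lowest. It stood at 120, 125 and 118 CPM in the bulb, 110, 113 and 109 in the cerebellum, 92.1, 97.2 and 85.8 in the hippocampus and 87.2, 86.1 and 89.1 in the cortex. The bulb was called above the cortex (0.47 ± 0.07, 0.000247) and the hippocampus (0.40 ± 0.07, 0.00076). Its call of cerebellum over hippocampus (0.28 ± 0.07, 0.00687) was lost without hippocampus library 3 (0.0673). Abat, which breaks down GABA, stood at 593, 581 and 504 CPM in the bulb, 501, 454 and 427 in the cerebellum, 480, 403 and 422 in the cortex and 327, 322 and 316 in the hippocampus. The bulb exceeded the hippocampus by 0.80 ± 0.10 (5.16e-05). For Abat the call of bulb over cerebellum (0.28 ± 0.10, 0.0359) was lost without cerebellum library 2 or 3 or bulb library 1 or 2 (up to 0.140), and that of cortex over hippocampus (0.44 ± 0.10, 0.0117) without cortex library 1 (0.0522).

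**Figure D3:**
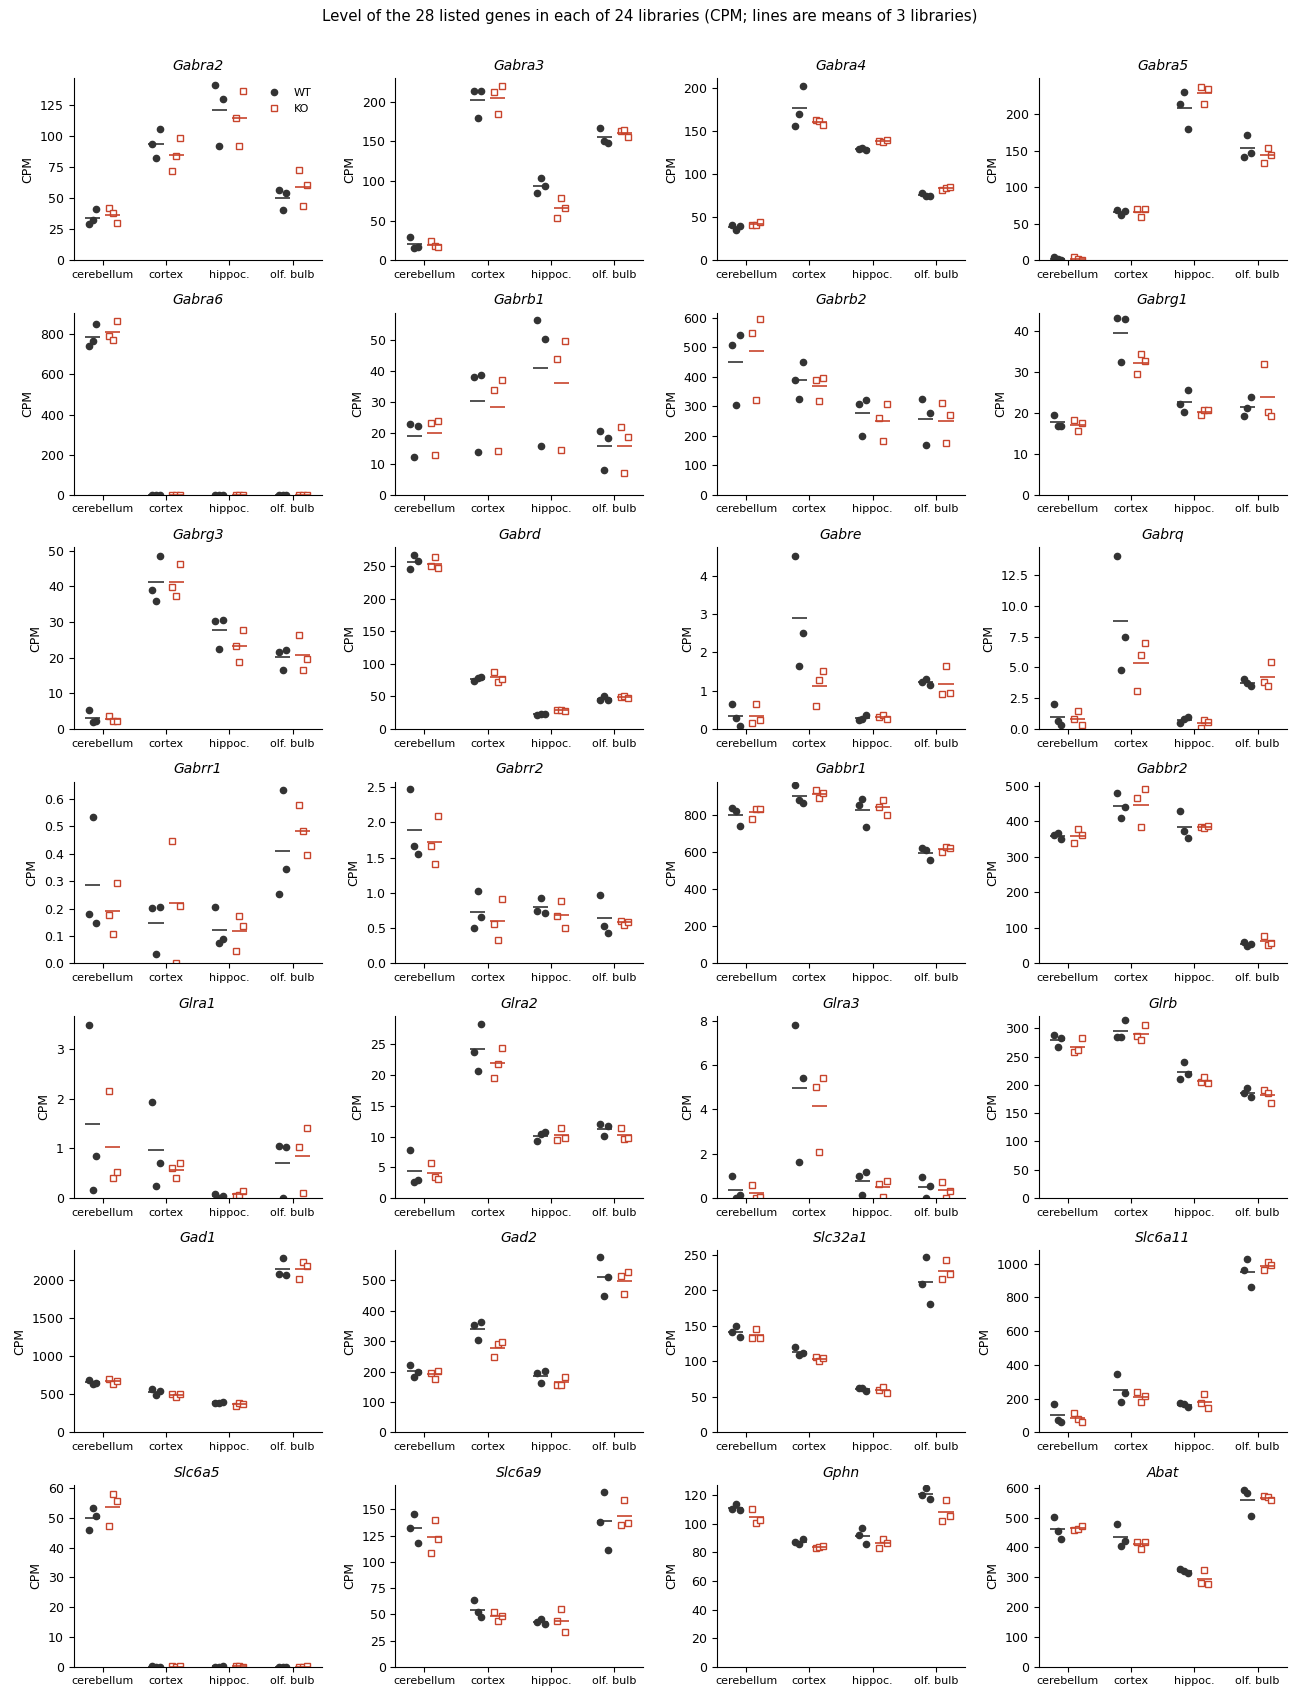
CPM of each listed gene (1 panel per gene, y axis from 0) in the 4 regions, with filled circles for wild-type (WT) and open squares for knockout (KO) libraries and a line at the mean of 3 libraries. Gabra6 and Slc6a5 leave 0 only in the cerebellum, Gabbr2 drops in the olfactory bulb, and the genotypes lie close together in most panels.

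The regional calls recurred in the knockout libraries, which were fitted apart. Of the 21, 18, 21, 13, 18 and 16 genes called in the 6 pairs of wild-type regions, in the order above, 20, 17, 21, 13, 17 and 16 were also called there in the knockout libraries, and each had the same direction. In all, 21, 19, 22, 14, 17 and 17 members were called in the knockout libraries, where 59.7%, 57.4%, 52.4%, 21%, 48.7% and 46.7% of all genes were. In wild type alone, Gabbr2, Gabrg1 and Gabra2 were each called in 1 pair. In the knockout alone, Gabbr1, Gabrb2, Slc6a11, Gabrg1, Gabrg3 and Glra1 were each called in 1 pair. The difference between genotypes in these contrasts was not tested.

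Of 31 further genes of the pathway, among them chloride carriers, GABA-B auxiliary subunits and synaptic partners of gephyrin, 30 were matched and 28 passed the filter on low counts. Of these 28, 17 were called between cerebellum and cortex (53.7% of all genes), 15 between cerebellum and hippocampus (49%), 15 between cerebellum and bulb (46.4%), 3 between cortex and hippocampus (13.5%), 15 between cortex and bulb (44.3%) and 13 between hippocampus and bulb (40.9%), counts that lie near these backgrounds. The chloride exporter Slc12a5 had means of 471 to 715 CPM over the 4 regions, and Nlgn2, the adhesion protein of inhibitory synapses, had a highest mean only 1.06 times its lowest and no call. Kctd16, an auxiliary subunit of GABA-B receptors, ranged from 0.601 CPM in the cerebellum to 11.05 CPM in the cortex. The glycine receptor subunit Glra4 reached 2.01 CPM in the bulb.

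Several listed genes were lower in the libraries numbered 2 of every region and genotype. Gabrb1, Gabrb2, Gabrg3 and Glra3 were lowest in library 2 in all 8 groups. Over all 17266 genes tested in 24 libraries, 4.28% were lowest in library 2 in all 8 groups and 3.08% were highest, against 0.353% and 0.162% for library 1 and 0.110% and 0.0695% for library 3. Gabrb1 in library 2 was 0.292 to 0.543 times the mean of the other 2 libraries of its group, and Gabrb2 was 0.558 to 0.805 times. In the wild-type hippocampus Gabrb1 stood at 56.5, 15.6 and 50.6 CPM, and in the knockout hippocampus at 44.1, 14.4 and 49.8 CPM. Gad2 was lowest in library 2 in 7 of 8 groups and Glra1 in 7 of 8. With the 8 libraries numbered 2 left out, an alternative chosen after seeing the data, Gabrb1 was called in 5 of 6 pairs of regions, for instance cortex over cerebellum (edgeR adjusted p = 0.000331) and hippocampus over cortex (0.0139). Only 2 libraries per group remained. Gabrb1 was named for its low library 2, so its spread narrows here by construction. The labels do not say what the number stands for.

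**Figure D4:**
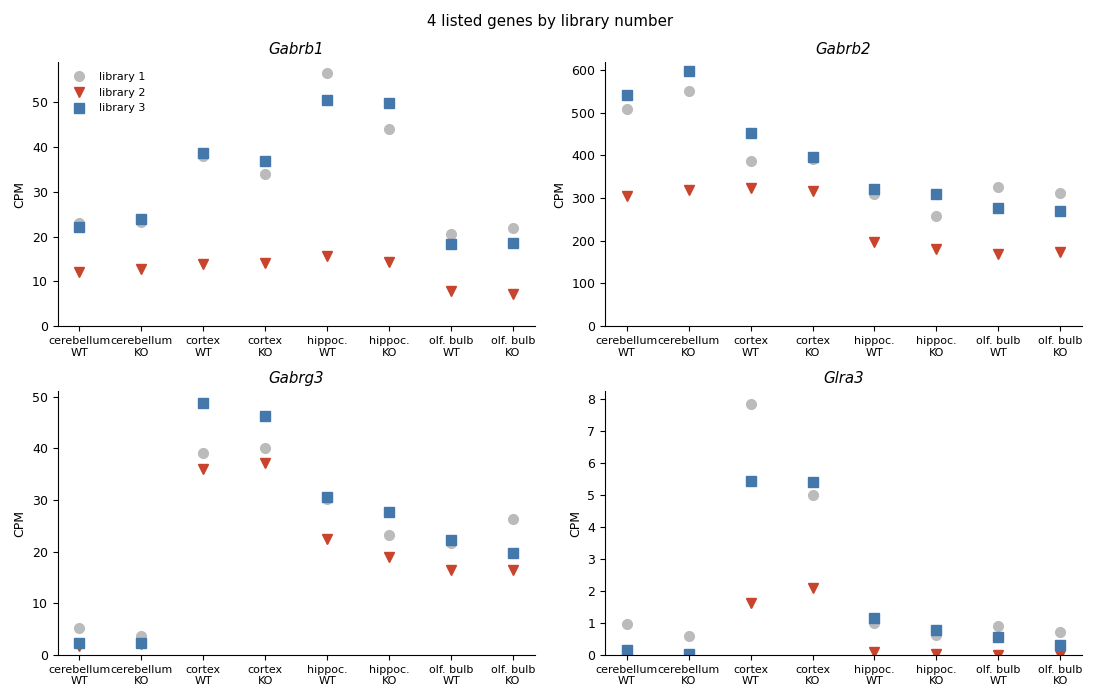
CPM of Gabrb1, Gabrb2, Gabrg3 and Glra3 (y axis, from 0) in the 8 groups (x axis), with 1 point per library and shape and colour by library number. Library 2 (triangles) is the lowest point of every group in all 4 panels.

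Without a block for the library number, edgeR called none of the listed genes between knockout and wild type. In these fits, 0 of 25 tested members were called for cerebellum (0% of 15723 genes), 0 of 25 for cortex (0.0379% of 15834), 0 of 23 for hippocampus (0% of 15572) and 0 of 26 for bulb (0% of 16131). For the effect averaged over the 4 regions, 0 of 28 were called, where 2.68% of 17266 genes were (1.81% higher in the knockout and 0.863% lower). The effect differed between regions for 0 of 28, against 0.0232% of all genes. At an unadjusted p under 0.05, in the same order, 0, 3, 2, 1, 3 and 1 members passed, where 5.48%, 4.2%, 5.16%, 5.33%, 14% and 2.54% of all genes did. DESeq2 called 0 members in each of these comparisons except 1, Gphn in the average, and limma-voom called 0 in all 6. With the library number as a block, edgeR called Gabra3 in the hippocampus, and Gphn and Gad2 in the average, where equal numbers did not pair the cortex libraries. The shares of all genes called by DESeq2 and with the block are not given here. These member calls therefore have no background beside them. Of the 27 or 28 further pathway genes tested, 0 were called in each comparison, with 1, 1, 0, 1, 1 and 1 at an unadjusted p under 0.05.

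The medians of the members' differences were small. They were -0.053 in the cerebellum, -0.14 in the cortex, -0.094 in the hippocampus, 0.029 in the bulb and -0.046 in the average on the log2 scale, and the medians over all genes lay between -0.0053 and -0.0012. In the cortex 3 of 25 members had a positive difference and 22 a negative one, where 48.1% of all genes had a positive one. The summed level of 10 inhibitory neuron markers in the cortex was 368 to 492 CPM in wild type and 348 to 397 CPM in the knockout. The 10 bulb markers summed there to 100 to 195 CPM in wild type and 72.9 to 75.4 CPM in the knockout, without overlap. Immediate-early genes, 12 in the list, summed to 600 to 885 CPM in the wild-type cortex and to 1731 to 2382 CPM in the knockout cortex. Their part in the cortex values was not tested.

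**Figure D5:**
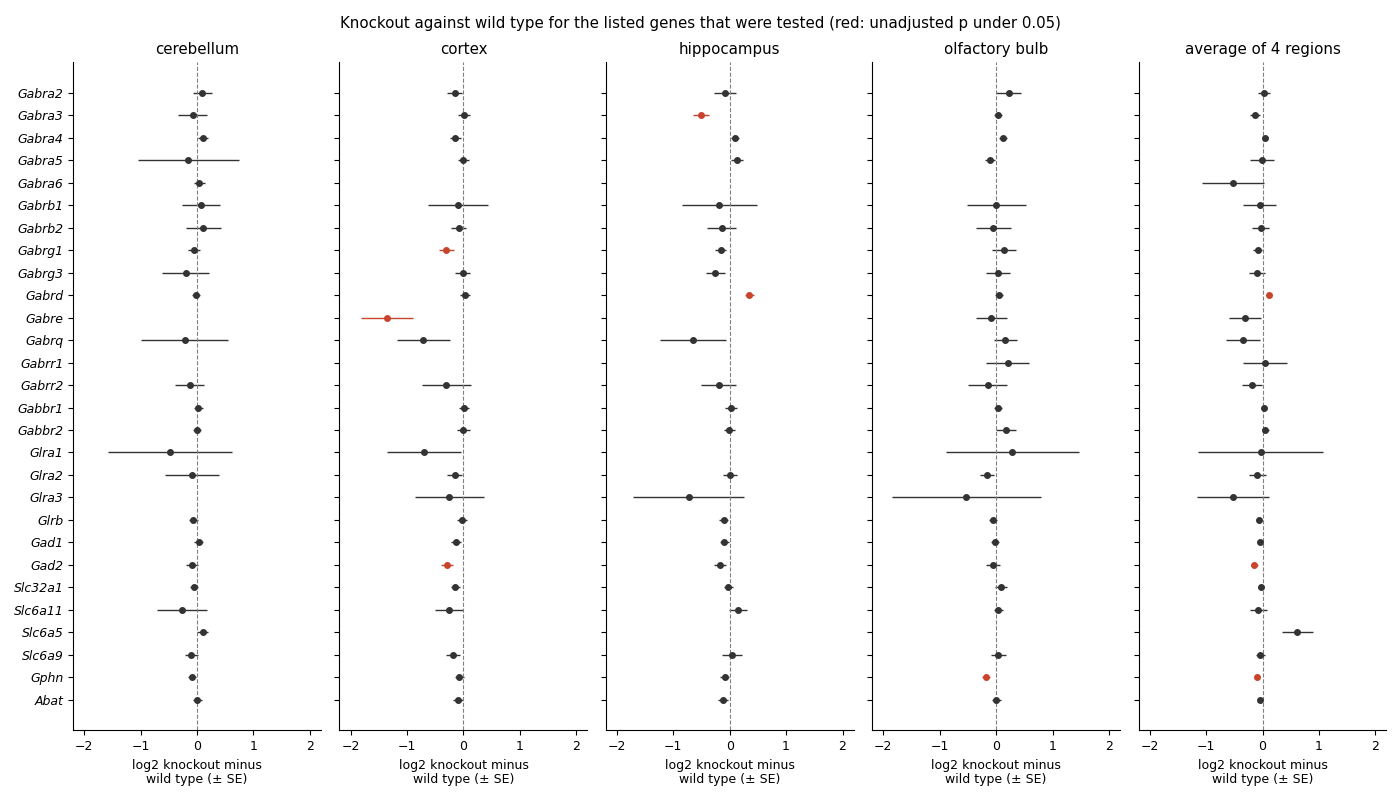
Knockout minus wild type on the log2 scale (x axis, point with standard error) for each listed gene that passed the filter on low counts (y axis), in 4 regions and for their average. Most points lie near 0, and those in red, such as Gabrd and Gabra3 in the hippocampus, had an unadjusted p under 0.05 and no adjusted p under 0.05.

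In the average over regions the smallest p-values belonged to Gphn, Gabrd and Gad2. Gphn was -0.10 ± 0.03 on the log2 scale (edgeR unadjusted p = 0.00429, adjusted p = 0.0973). It was lower in the knockout in 11 of 12 pairs of libraries of equal region and number, and Glrb in 10. Its pairs in cortex and bulb were fixed by groups without overlap. No share over all genes is given for such pairs, so the count adds no support. DESeq2 gave Gphn an adjusted p of 0.0313, and edgeR with the library number as a block 0.0375. In the bulb it stood at 120, 125 and 118 CPM in wild type and 102, 117 and 105 CPM in the knockout, without overlap (-0.18 ± 0.07, edgeR unadjusted p = 0.0315, adjusted p = 0.908). In the cortex its knockout values of 83.2, 83.5 and 84.4 CPM also lay below the wild-type values of 87.2, 86.1 and 89.1 CPM. In the cerebellum, where the smallest p-values belonged to Gphn, Gabra4 and Slc6a5 with differences of -0.09 ± 0.07, 0.10 ± 0.09 and 0.10 ± 0.10, Gphn stood at 110, 113 and 109 CPM in wild type and 110, 100 and 103 CPM in the knockout. Gabra4 stood there at 41.2, 35.7 and 39.5 CPM in wild type and 40.99, 40.5 and 43.95 CPM in the knockout, and the groups overlapped. The edgeR adjusted p was 1 for each of these 3.

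Gabrd was 0.11 ± 0.04 in the average (edgeR unadjusted p = 0.00801, adjusted p = 0.140). The largest of its 4 regional differences was in the hippocampus, where Gabrd stood at 21.5, 22.8 and 23.5 CPM in wild type and at 28.9, 29.8 and 27.6 CPM in the knockout, so that the groups did not overlap (0.35 ± 0.08, edgeR unadjusted p = 0.00301, adjusted p = 0.954). In cerebellum, cortex and bulb it was -0.02 ± 0.07, 0.03 ± 0.09 and 0.05 ± 0.07. The test of a difference between regions gave Gabrd the smallest p of the list (edgeR unadjusted p = 0.0129, adjusted p = 1), followed by Gabra4 (0.0626, adjusted p = 1) and Gabra3 (0.125, adjusted p = 1).

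Gabra3 stood at 85.1, 103 and 93.1 CPM in the wild-type hippocampus and at 53.3, 77.8 and 66.2 CPM in the knockout hippocampus, without overlap (-0.52 ± 0.15, edgeR unadjusted p = 0.00846, adjusted p = 0.954). With the library number as a block, its edgeR adjusted p was 0.0469. Hippocampus libraries of equal number correlated over genes by 0.240 to 0.482, and those of unequal number by up to 0.237. Because the groups did not overlap, any pairing of these libraries had Gabra3 lower in the knockout. In the cerebellum, cortex and bulb its difference was -0.08 ± 0.26, 0.01 ± 0.10 and 0.04 ± 0.07. Non-overlapping groups in the hippocampus were found for 2 members that were higher, Gabrd and Gabra4 (5.5% of all genes), and 2 that were lower, Gabra3 and Gad1 (4.96%). The summed level of 8 choroid plexus markers in the hippocampus was 40.3 to 3317 CPM in wild type with a median of 2510 CPM, and 38.8 to 49.9 CPM in the knockout. The 12 immediate-early genes summed there to 521 to 704 CPM in wild type and 831 to 1431 CPM in the knockout. Their part in the hippocampus values was not tested.

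Gad2 was -0.14 ± 0.06 in the average (edgeR unadjusted p = 0.0178, adjusted p = 0.214, or 0.0404 with the library number as a block). It was lower in the knockout in 9 of 12 pairs of equal number, as were Slc32a1 and Glra3. Its cortex pairs were fixed by groups without overlap, and no share over all genes is given. In the cortex it stood at 354, 302 and 361 CPM in wild type and 249, 291 and 297 CPM in the knockout, without overlap (-0.29 ± 0.11, edgeR unadjusted p = 0.0233, adjusted p = 0.974). In the hippocampus its values of 194, 164 and 200 CPM in wild type and 157, 157 and 182 CPM in the knockout overlapped (-0.17 ± 0.11, edgeR unadjusted p = 0.144, adjusted p = 1). Gabre was -1.36 ± 0.46 in the cortex (edgeR unadjusted p = 0.0179, adjusted p = 0.891), at 4.53, 1.64 and 2.52 CPM in wild type and 0.595, 1.28 and 1.51 CPM in the knockout. Wild-type library 1 was the high one, and without it the difference was -0.90. Gabrg1 in the cortex stood at 43.0, 32.4 and 42.9 CPM in wild type and 29.5, 34.3 and 32.7 CPM in the knockout, and the groups overlapped (-0.30 ± 0.13, edgeR unadjusted p = 0.0457, adjusted p = 1). Members lower in the knockout cortex without overlap were Gad2, Gabre, Slc32a1 and Gphn, 4 of 25 (4.26% of all genes), and none was higher without overlap (5.03%).

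In the bulb Gabra4 stood at 77.8, 75.0 and 74.8 CPM in wild type and 81.3, 84.0 and 85.3 CPM in the knockout, without overlap (0.12 ± 0.06, edgeR unadjusted p = 0.0955, adjusted p = 0.956). Gabra5 there stood at 142, 171 and 146 CPM in wild type and 133, 154 and 144 CPM in the knockout (-0.11 ± 0.09, edgeR unadjusted p = 0.255, adjusted p = 1). Gabra4 was the only member of 26 that was higher without overlap in the bulb (5.83% of all genes), and Gphn the only one that was lower (4.41%). Beside these bulb values, immediate-early genes summed to 404 to 1005 CPM in wild type and 1331 to 2355 CPM in the knockout, and 6 excitatory neuron markers to 1390 to 1512 CPM and 1579 to 1795 CPM, and the part of neither was tested. In the cerebellum no member was apart in either direction (6.25% and 4.98%). Slc6a5 in the cerebellum stood at 45.9, 53.2 and 50.7 CPM in wild type and 47.3, 58.2 and 55.5 CPM in the knockout. For Gabra6 the cerebellum values were 791, 774 and 865 CPM in the knockout, beside 740, 768 and 852 CPM in wild type (0.04 ± 0.10).

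Because Cdr1as binds miR-7 and carries a site for miR-671, the 3′ UTRs of the listed genes were searched for matches to bases 2 to 8 of these microRNAs. Their mature sequences are from RefSeq, with bases 2 to 8 in capitals.
mmu-miR-7a-5p: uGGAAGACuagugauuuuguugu
mmu-miR-7b-5p: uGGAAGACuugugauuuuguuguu
mmu-miR-671-5p: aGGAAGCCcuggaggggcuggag
The 2 forms of miR-7 share their seed, and its match GTCTTCC was found on the transcript strand of the longest annotated 3′ UTR (GENCODE M21) of 6 of 28 listed genes, or 21.4%, where 13.8% of 15157 genes had one. The match of miR-671, GGCTTCC, was in 7 of 28 (25%), where 14.3% of all genes had one. The motifs do not overlap each other in these windows, and the listed genes had longer UTRs (median 1959 bases, against 1163), so the shares are not comparable without that length.

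Of these 6 genes, the windows of Glra3 and Gabbr1 are shown, with the match in capitals, because they hold the most matches per gene or the lowest difference in the average.
Glra3 site 1: agtgatttgttGTCTTCCtagt
Glra3 site 2: aacagtatatgGTCTTCCttgt
Gabbr1 site 1: cagcagcagggGTCTTCCtaca
Gabbr1 site 2: catgtccctgtGTCTTCCtctc
Gabbr1 site 3: cacaccaagctGTCTTCCtcat
Gabbr1, with 3 matches, was 0.03 ± 0.04 on the log2 scale in the average over regions. Glra3, with 2, was -0.52 ± 0.64, at 383 reads summed over the wild-type cortex libraries and 379 over the knockout ones. The other 4 had differences of -0.05 ± 0.29 (Gabrb1), -0.10 ± 0.14 (Gabrg3), -0.08 ± 0.15 (Slc6a11) and -0.04 ± 0.08 (Slc6a9). The edgeR adjusted p was 0.822 or more in each of the 6, and a match is a string of letters, not a measured binding site.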

How the data were processed

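Raw read counts per gene were deposited by the authors, 1 table per library, with 5 summary lines that name no gene and were left out of sizes and tests (no feature 8.22% to 16.8%, ambiguous 0.576% to 0.764%, not unique 10.3% to 13.5%). Per the submitters' processing notes the tools were bcl2fastq 2.17.1.14, STAR 2.5.1b and HTSeq 0.6.1p1 on mm9. Whether counting used the strand is not given in the sources used here, so genes that overlap on opposite strands are uncertain. IDs were matched to GENCODE M21 (GRCm38), which also gave exon lengths and UTRs; no mm9 gene positions are printed.

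Counts were filtered with filterByExpr, scaled by TMM and tested with edgeR 4.0.16 (quasi-likelihood, R 4.3.3), with alternatives in DESeq2 1.42.0 and limma-voom 3.58.1. Adjustment was over all genes tested. The method was tested on simulated data. Members and lists were chosen with earlier results of these data known. Values by library are given for the 3 smallest p of each knockout comparison, the leading gene of each class per length, and the 5 largest and 3 smallest regional ranges; other genes were named after their values were seen. Equal-numbered knockout and wild-type libraries correlated over genes by 0.235 to 0.546 in cerebellum, 0.240 to 0.482 in hippocampus and 0.166 to 0.668 in bulb. In the cortex 1 of 3 did not (-0.071). Unequal numbers reached 0.192 in cerebellum, 0.237 in hippocampus, 0.345 in bulb and 0.352 in cortex. Wild-type bulb library 1 correlated more with knockout library 3 (0.345) than with knockout library 1 (0.304). Equal numbers are therefore not shown to be matched pairs. Between wild-type regions equal numbers correlated over 0.1 in 17 of 18 cases, and the exception was between cerebellum and hippocampus (0.0698). The main fits had no block for the library number, so their standard errors and p-values do not use these pairs. The number entered only where a block is named, and the block in the regional fit also covered cerebellum and hippocampus. Replicate pairs differed beyond counting noise (chi-square per degree of freedom 6.61 to 56.1 over 24 pairs).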

Additional observations from a re-analysis of the deposited data

How the results depend on the processing

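Of 107 regional calls, 86 held in each of 12 runs leaving out 1 wild-type library, 81 also under DESeq2, library totals, no low-count filter, the knockout libraries, the replicate block and without the libraries numbered 2, and 0 reversed under any of these. Leaving out 1 library gave 18 to 21, 15 to 18, 18 to 21, 10 to 14, 14 to 21 and 15 to 17 calls in the 6 pairs of regions. Requiring a 2-fold difference left 6 calls between cortex and hippocampus, 9 between cortex and bulb and 10 between hippocampus and bulb, since smaller differences were dropped by construction. The replicate block gave 23, 21, 21, 17, 21 and 18 calls in these pairs, which added 14 and ended 0; 3 of the added calls were between cerebellum and hippocampus (Gabrb1, Gabrb2 and Slc6a11), where not every pair of equal numbers correlated. In the knockout comparisons the replicate block gave 1 called member in the hippocampus (Gabra3) and 2 in the average (Gad2, adjusted p = 0.0404, and Gphn, 0.0375), where not every region is paired, DESeq2 gave 1 in the average (Gphn), and the block changed no other call; the cause was not tested. The shares of all genes called by DESeq2 or with the block are not given here, so the regional and knockout counts above have no background. The 6 to 24 runs leaving out 1 library gave 0 to 0 called members. The leading alpha share was 93.6% (cerebellum) and 39.7% (cortex) with the longest transcript, and 89.1% (cerebellum), 37.5% (cortex), 37.6% (hippocampus) and 35.3% (Gabra5 in the bulb, where Gabra3 then led) without division by length, by construction. Leaving out 1 library gave 94.6% to 95.5%, 43.5% to 45.5%, 51.8% to 55.2% and 44.7% to 48.5%. The per-length ratios between genes were computed only with the length of all exons, and another length would change their size. Depth limits Gabra6 and Slc6a5 outside the cerebellum and Glra1, Glra3 and Gabrr1, whose intervals rest on few reads.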
